A study of Mus musculus with 9 samples.

Results

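The genes described here are the catenins, their partner E-cadherin and the TCF/LEF transcription factors: 10 genes taken by symbol from the count table of 52264 rows. They are Ctnnb1, Jup, Ctnna1, Ctnnd1, Ctnnbip1, Cdh1, Tcf7l1, Tcf7l2, Tcf7 and Lef1. The samples were mouse embryonic stem cells (ESCs), with 9 RNA sequencing libraries in 3 groups of 3, named by treatment and replicate number. All carry the genotype label beta-catenin-/- and all were expanded on feeder-treated dishes with 3 µM CHIR-99021, 1 µM PD03, which inhibits MEK, and 40 ng/ml LIF, a cytokine. The medium was changed to N2B27 overnight. The cells then stood for 30 min untreated (control), with BRD0705, an inhibitor selective for GSK3α, or with CHIR-99021 (CHIR), which inhibits GSK3α and GSK3β. The labels give no dose for the 30 min treatments, do not say how the null allele was made or whether the cells are 1 clone, and do not say that replicates came from separate cultures. P-values therefore measure the spread between these libraries, which may be technical.

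β-Catenin (Ctnnb1) has a role at the membrane and a role in the nucleus. At adherens junctions it binds the tail of E-cadherin (Cdh1) and links it through α-catenin (Ctnna1) to actin, while p120-catenin (Ctnnd1) holds the cadherin at the surface. Plakoglobin (Jup) is a close relative that can take the place of β-catenin in the junction. In the nucleus β-catenin binds TCF/LEF factors on DNA, and ICAT (Ctnnbip1) blocks that binding. GSK3 phosphorylates β-catenin and so marks it for degradation. In mouse ESCs the repressor Tcf7l1 is known as the main TCF/LEF factor acting against pluripotency genes, and release of its repression through β-catenin is the best-known route by which CHIR sustains these cells.

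The coding stretch on which GSK3 and the kinase CK1 act is shown because it ties the inhibitors to these genes. Plakoglobin carries a related stretch. Both are read 5′ to 3′ from the canonical transcripts of GENCODE vM39, and capitals mark the codons for serine or threonine. The Ctnnb1 stretch covers coding bases 94 to 135, in exon 3, and the Jup stretch coding bases 67 to 108, in exon 2.
Ctnnb1: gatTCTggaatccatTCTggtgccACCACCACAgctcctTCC
Jup: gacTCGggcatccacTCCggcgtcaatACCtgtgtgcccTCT
The stretches matched at 26 of 42 bases, with 6 capital codons in Ctnnb1 and 4 in Jup. These are all serine or threonine codons of the stretch, not a count of GSK3 sites. The counts are sums per gene and do not show how many reads covered this stretch.

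The TCF/LEF factors share a DNA-binding HMG box. A run of 60 coding bases from a conserved motif of the box is shown because near-identical stretches decide whether reads can be told apart between the genes. Capitals mark the 42 bases that are the same in all 4 genes.
Tcf7l1: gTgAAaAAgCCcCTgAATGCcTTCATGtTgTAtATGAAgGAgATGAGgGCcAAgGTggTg
Tcf7l2: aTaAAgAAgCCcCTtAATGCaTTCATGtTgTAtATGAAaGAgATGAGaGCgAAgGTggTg
Tcf7: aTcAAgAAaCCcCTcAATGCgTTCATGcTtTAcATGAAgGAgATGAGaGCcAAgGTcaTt
Lef1: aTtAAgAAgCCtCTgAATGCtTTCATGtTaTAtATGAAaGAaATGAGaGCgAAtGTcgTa
The longest identical run between any 2 of the 10 canonical transcripts was 36 bases, between Tcf7 and Lef1. It was 23 bases between Tcf7l1 and Tcf7l2 and 20 between Ctnnb1 and Jup. The read length is not given in the sources used here.

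All 10 genes passed the low-count filter, among 15366 rows of the table that did, from libraries of 17359422 to 20773337 counts. Values are given as CPM, counts scaled to the library size after TMM normalization. In each of the 9 pairs of libraries of a group, counts differed by more than sampling noise (chi-square over its degrees of freedom 3.39 to 8.01). The 12 ESC markers, among them Pou5f1, Nanog and Esrrb, were present in every library and summed to 5394 to 5509 CPM in control, 5462 to 5597 CPM under BRD0705 and 5603 to 5797 CPM under CHIR. By edgeR at an adjusted p under 0.05, Esrrb and Klf4 rose under CHIR against control, where 6.3% of all tested genes passed. Esrrb, Klf4 and Tdgf1 were lower under BRD0705 than under CHIR, where 7.77% passed. For BRD0705 against control 0 of 12 passed, and 4 had an unadjusted p under 0.05, where 15.9% of all genes did. DESeq2 called 2 there, Sox2 (log2 change -0.20) and Utf1 (0.18), and limma voom 0. For CHIR against control DESeq2 called 4 and limma voom 3. The log2 fold change was above 0 for 6 of 12 under CHIR against control (median 0.03) and 5 of 12 under BRD0705 (median -0.03). The 16 fibroblast markers, a list for the feeder cells led by Fn1 and Col1a1, were also present in every library. They summed to 4848 to 5505 CPM in control, 5641 to 6099 CPM under BRD0705 and 5410 to 6113 CPM under CHIR. Their log2 fold change was above 0 for 15 of 16 under each inhibitor against control, with a median of 0.18 for BRD0705 and 0.16 for CHIR. Col1a1 and Col5a1 passed in both comparisons, and 0 of 16 passed between the inhibitors, with a median of 0.06 (edgeR, adjusted p under 0.05). There, 1 of 16 had an unadjusted p under 0.05, and DESeq2 and limma voom called 0. Against control, 8 of 16 had an unadjusted p under 0.05 for BRD0705 and 7 of 16 for CHIR (edgeR). Over all tested genes the unadjusted share was 15.9% for BRD0705, 20.5% for CHIR and 22.5% between the inhibitors. By adjusted p, 1.22% passed for BRD0705 against control and 6.3% for CHIR. DESeq2 called 3 of 16 for BRD0705, with Thy1 added (adjusted p 0.0330), and 2 for CHIR. Against control, limma voom called 2 for each inhibitor. In bulk RNA, a change in the number of cells of a type and a change in RNA per cell cannot be told apart. The 6 primitive endoderm markers summed to 16.7 to 17.4 CPM in control, 17.2 to 20.5 CPM under BRD0705 and 14.05 to 16.3 CPM under CHIR, with Foxa2 at 0 to 0.0493 CPM. The sums of the 5 primed or mesoderm markers were 94.99 to 99.8 CPM in control and 78.2 to 87.2 CPM under BRD0705, without overlap. Under CHIR they were 88.7 to 97.4 CPM. Otx2, at a mean of 74.8 CPM over the 9 libraries, made up most of these sums. For BRD0705 against control, 2 of the 4 tested markers of this list lay above 0, with a median log2 fold change of 0.17. For CHIR against control it was 1 of 4, with a median of -0.11. Of the 11 primitive endoderm and primed or mesoderm markers, edgeR called Pdgfra, which fibroblasts also express, higher under BRD0705 than under CHIR (adjusted p 0.0299, DESeq2 0.0760). DESeq2 called Otx2 lower under BRD0705 than in control (adjusted p 0.0248, edgeR 0.0666). The part of the marker shifts in the values of the 10 genes was not tested.

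None of the 10 genes passed an adjusted p of 0.05 in any of the 3 comparisons. In edgeR's quasi-likelihood test, with p-values adjusted by Benjamini-Hochberg over all genes, 0 of 10 passed for BRD0705 against control, where 1.22% of all tested genes did (0.69% higher and 0.534% lower). For CHIR against control it was also 0 of 10, against 6.3% of all genes (2.52% higher and 3.78% lower), and for BRD0705 against CHIR 0 of 10, against 7.77% (4.8% higher and 2.97% lower). Before adjustment, p was under 0.05 in 1, 0 and 2 of the 10 genes, where the shares over all genes were 15.9%, 20.5% and 22.5%. DESeq2 called 1 gene, Jup, for BRD0705 against control and 0 in the other comparisons, and limma voom called 0 in all 3. Over all genes, DESeq2 called 471 for BRD0705 against control, where edgeR called 188. DESeq2, after its own filtering, adjusted p-values over fewer genes than edgeR, so the 2 counts have unlike denominators. More calls among fewer genes put the DESeq2 share above the 1.22% of edgeR. The edgeR shares are therefore not the background for the Jup call. The inhibitor comparisons with control share the 3 control libraries.

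**Figure D1:**
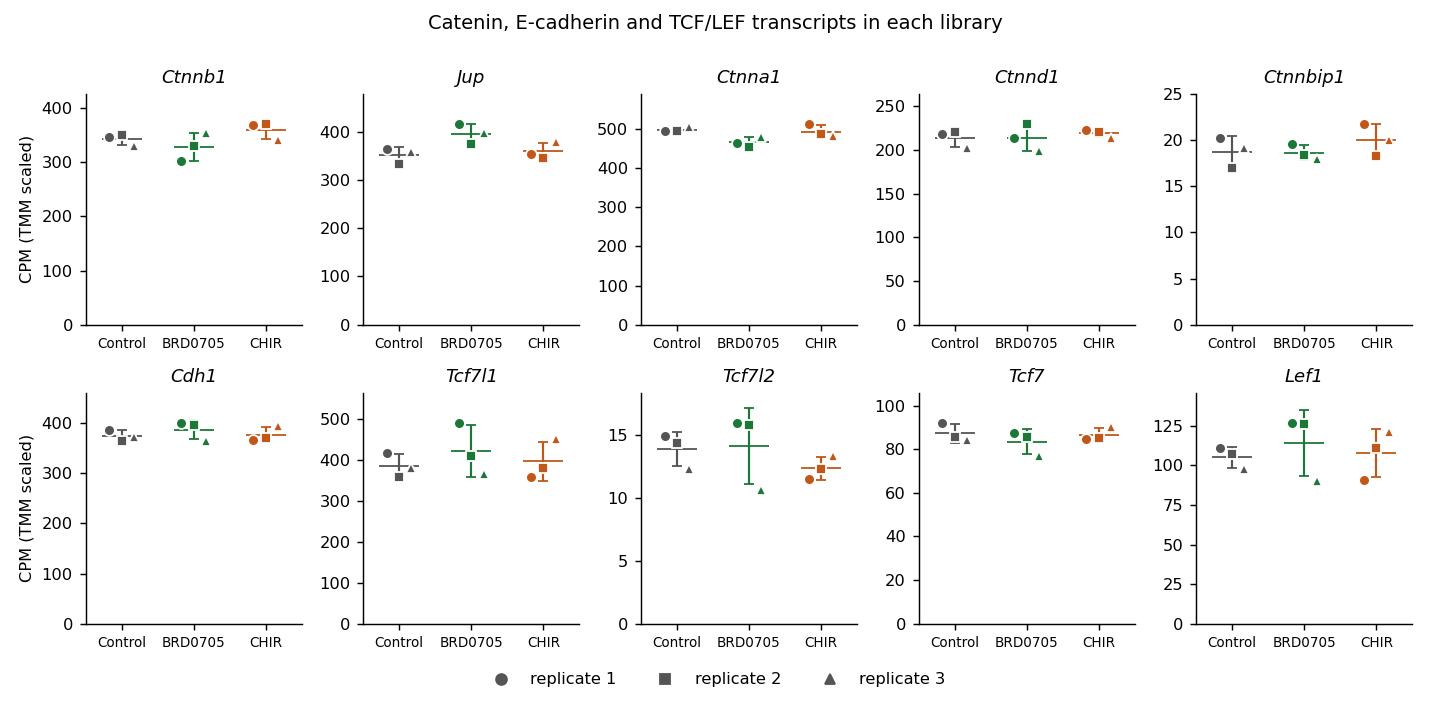
CPM of each of the 10 genes in each library, on linear axes from 0, with points for libraries (shape gives the replicate number) and bars for the mean and SD of 3 libraries. Jup lies higher under BRD0705 than in control and Ctnna1 lower, without overlap, while Tcf7l1 and Lef1 spread more within the inhibitor groups than in control.

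The intervals of the fit give the uncertainty of each log2 fold change taken alone, given the spread between these libraries. The 95% confidence intervals of the 10 log2 fold changes ran from -0.25 to 0.35 for BRD0705 against control, from -0.44 to 0.28 for CHIR against control and from -0.29 to 0.46 for BRD0705 against CHIR. The widest belonged to Tcf7l2, which had the fewest counts. In size without sign, the log2 fold changes of the 10 genes had medians of 0.06, 0.03 and 0.09 in the 3 comparisons, and those of all tested genes 0.10, 0.11 and 0.12. With sign, 6, 7 and 5 of the 10 lay above 0.

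**Figure D2:**
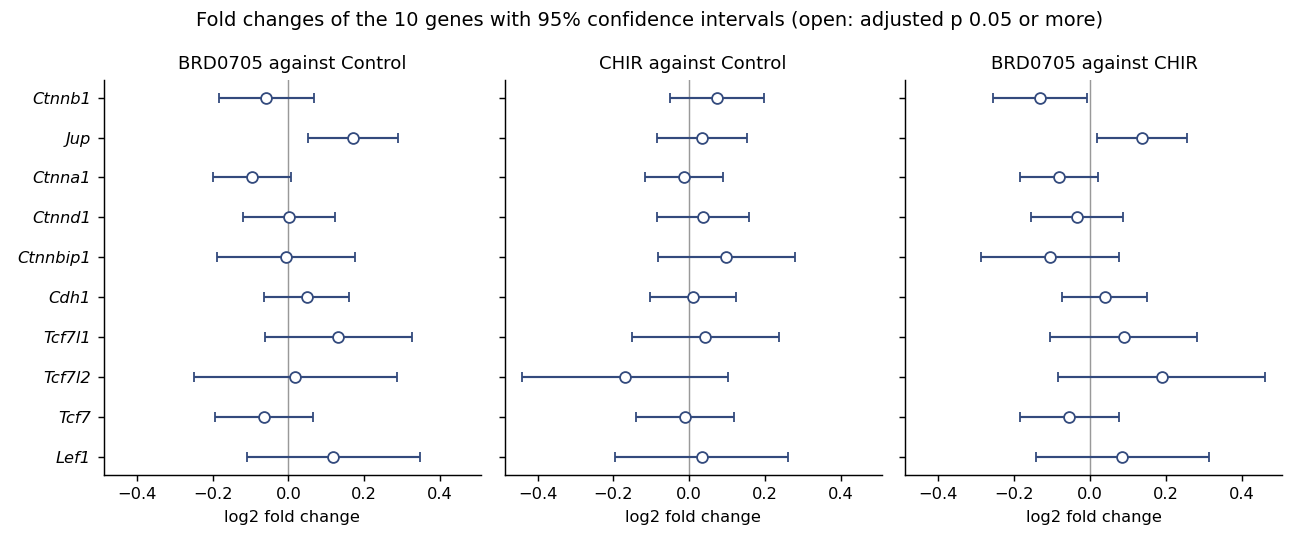
Log2 fold change (x axis) of each gene in the 3 comparisons, with 95% confidence intervals from edgeR's quasi-likelihood fit. All points are open, as none passed an adjusted p of 0.05. The Jup interval lies above 0 for BRD0705 against control and against CHIR, and the Ctnnb1 interval lies below 0 for BRD0705 against CHIR.

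Ctnnb1 RNA was abundant in all 9 libraries although the cells are labelled β-catenin null. The gene (mm10 chromosome 9, 120933400 to 120960507, plus strand, per RefSeq on GRCm38.p6) stood at 348, 350.4 and 331 CPM in the control libraries. It stood at 303, 331 and 354 CPM under BRD0705 and at 370.2, 371 and 341 CPM under CHIR. The groups overlapped in all 3 comparisons. The fold change was -0.06 ± 0.06 (log2, SE) for BRD0705 against control and 0.07 ± 0.06 for CHIR against control, with edgeR adjusted p of 0.697 and 0.544. Between the inhibitors it was -0.13 ± 0.06, with an unadjusted p of 0.0394 and an edgeR adjusted p of 0.194. Its counts, 5657 to 7457 per library, do not show which exons or which cells of the dish they came from. The part of feeder cells in them was not tested, and no parental cells were analysed here. Mir7090 lies within the gene on the same strand, Ulk4 and 4930593C16Rik overlap it on the other, and the use of strand in the counting is not given in the sources used here.

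The pattern of Ctnnb1 over the 9 libraries was shared most closely by Tmem65, Eif3m and Hsp90b1. Likeness was the root mean square difference of the deviations of log2 CPM from each gene's own mean, among 8975 genes with a mean of at least 10 CPM. It was 0.03 for each of the 3 genes, against a median of 0.12 over all genes compared and an SD of 0.09 for Ctnnb1 itself on the same scale.

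Jup, which encodes plakoglobin, had the lowest p of the 10 genes for BRD0705 against control. The gene (mm10 chromosome 11, 100368856 to 100397839, minus strand) was at 364, 333.7 and 357 CPM in control. With BRD0705 it was at 416, 374 and 397 CPM, all above the control libraries. With CHIR it was at 353, 346 and 379.6 CPM, which overlapped both other groups. The log2 fold change for BRD0705 against control was 0.17 ± 0.06 (SE), a fold of 1.13 with a 95% interval of 1.04 to 1.22. The edgeR adjusted p was 0.144 and the DESeq2 adjusted p 0.0412, and over its alternatives the adjusted p ranged from 0.0412 to 0.458. Against CHIR the log2 difference was 0.14 ± 0.06 (SE), with an edgeR adjusted p of 0.152.

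The Jup transcript, whose values were highest in BRD0705 replicate 1, has a GC content of 58.8%, against a median of 50.6% over 15056 tested genes, and the libraries differed in their trend over GC content. Across genes, transcript GC content and the difference of a library's log2 CPM from the mean of all libraries had a Spearman correlation of 0.193, -0.292 and -0.163 in control. It was 0.260, 0.0543 and 0.220 under BRD0705 and -0.0936, -0.116 and -0.0542 under CHIR. The part of this trend in the Jup values was not tested. Genes are not independent replicates, so these values are descriptions.

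Ctnna1, which encodes αE-catenin, was the other gene whose control and BRD0705 libraries did not overlap. It lies on chromosome 18 and was at 495, 496 and 505 CPM in control and at 464, 455 and 481 CPM under BRD0705. With CHIR it was at 514, 487 and 481.4 CPM. The lowest CHIR library stood just above the highest BRD0705 library, so the inhibitor groups did not overlap either. The log2 fold change was -0.10 ± 0.05 (SE) for BRD0705 against control and -0.08 ± 0.05 for BRD0705 against CHIR, with edgeR adjusted p of 0.351 and 0.336. CPM did not overlap in 2 of the 10 genes for BRD0705 against control, where 20.2% of all tested genes did the same. The counts were 0 of 10 for CHIR against control, where the share of all genes was 25.1%, and 1 of 10 between the inhibitors, where it was 26.7%.

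Ctnnd1, Cdh1 and Ctnnbip1 did not pass in any comparison, and their groups overlapped in each. Ctnnd1, the p120-catenin gene (mm10 chromosome 2, 84587096 to 84658977, minus strand), was at 213 ± 9.85 CPM in control, 214 ± 15.7 CPM under BRD0705 and 219 ± 4.58 CPM under CHIR (SD, n = 3 libraries each). Cdh1, the E-cadherin gene (mm10 chromosome 8, 106603350 to 106670247, plus strand), was at 374 ± 11.8, 387 ± 19.4 and 377 ± 15.3 CPM in the same order (SD, n = 3 libraries each). Its 9 libraries ranged from 364 to 400.5 CPM. E-cadherin is an epithelial and ESC gene that fibroblasts are known to hold at low levels. Ctnnbip1, the ICAT gene (mm10 chromosome 4, 149518241 to 149566437, plus strand), was at 18.8 ± 1.66, 18.7 ± 0.816 and 20.04 ± 1.72 CPM (SD, n = 3 libraries each). The 9 edgeR adjusted p-values of these 3 genes ran from 0.520 to 0.994.

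None of the 4 TCF/LEF genes passed, and their inhibitor groups overlapped control. Tcf7l1, the repressor (mm10 chromosome 6, 72626371 to 72789045, minus strand) was at 416, 358 and 379 CPM in control, 489, 409.9 and 364 CPM under BRD0705 and 358, 380.2 and 450.02 CPM under CHIR. Lef1, an activator and itself a target of Wnt signalling (mm10 chromosome 3, 131110297 to 131224357, plus strand), was at 111, 107 and 97.7 CPM in control. It was at 127, 126 and 90.0 CPM under BRD0705 and at 91.0, 111 and 121 CPM under CHIR. For both genes the range of each inhibitor group reached above the control range, and both Lef1 groups and the CHIR group of Tcf7l1 also reached below it.

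Tcf7, which encodes TCF1 (mm10 chromosome 11, 52246527 to 52283383, minus strand), varied less. It was at 92.0, 85.5 and 84.2 CPM in control, 87.6, 85.7 and 77.0 CPM under BRD0705 and 84.5, 85.2 and 90.2 CPM under CHIR. Tcf7l2, which encodes TCF4 (mm10 chromosome 19, 55741797 to 55933659, plus strand), was at 15.0, 14.4 and 12.4 CPM in control, 15.99, 15.9 and 10.7 CPM under BRD0705 and 11.5, 12.3 and 13.3 CPM under CHIR. Its CHIR group lay within or below the control range and overlapped it. The edgeR adjusted p of the 4 TCF/LEF genes over the 3 comparisons was at least 0.425.

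Within a treatment, the TCF/LEF genes peaked in the same libraries, a pattern described after its values were seen. All 4 were highest in control replicate 1, BRD0705 replicate 1 and CHIR replicate 3. All 4 were lowest in BRD0705 replicate 3 and CHIR replicate 1, while in control Tcf7l1 was lowest in replicate 2 and the other 3 in replicate 3. In the BRD0705 group the coefficient of variation was 15.02% for Tcf7l1, 18.4% for Lef1, 21.4% for Tcf7l2 and 6.80% for Tcf7, where the median of 8985 genes with at least 10 CPM was 5.28%. With CHIR it was 12.1%, 14.2%, 7.37% and 3.59% in the same order, against a median of 4.95%, and in control 7.60%, 6.34%, 9.90% and 4.81%, against 5.12%. The pattern was not confined to these genes. Cdh1 and Jup were also highest in control replicate 1, BRD0705 replicate 1 and CHIR replicate 3, Cdh1 was lowest in BRD0705 replicate 3 and CHIR replicate 1, and Ctnnbip1 shared the control and BRD0705 highs and the BRD0705 low, while Ctnnb1 was lowest in BRD0705 replicate 1 and highest in BRD0705 replicate 3. Transcript GC content was 59.9% for Tcf7l1, 56.7% for Lef1, 55.2% for Tcf7, 46.2% for Tcf7l2 and 50.4% for Ctnnb1, and its part in this pattern was not tested.

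This spread sets what could be seen. For BRD0705 against control, the log2 fold change of Tcf7l1 was 0.13 ± 0.09 and that of Lef1 0.12 ± 0.11 (SE), with edgeR adjusted p of 0.530 and 0.660. Without BRD0705 replicate 3 they were 0.23 and 0.27, with edgeR adjusted p of 0.181 and 0.121. Without BRD0705 replicate 1 they were 0.012 and 0.037, with edgeR adjusted p of 0.984 and 0.948. For Tcf7l2 the comparison of BRD0705 with CHIR moved from 0.19 ± 0.13 (SE; edgeR adjusted p 0.425) to 0.37 without BRD0705 replicate 3 (edgeR adjusted p 0.0503). In the comparison of CHIR with control, Tcf7l1 and Lef1 stood at 0.04 ± 0.09 and 0.03 ± 0.11 (SE), with edgeR adjusted p of 0.858 and 0.911.

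Promoter windows of Tcf7l1, Tcf7l2 and Lef1 are printed because they hold letters that TCF/LEF factors bind. A relation of these letters to the values of the genes was not tested. Windows run from 250 bases before to 50 after a RefSeq start on GRCm38.p6, 5′ to 3′ on the gene's strand. Capitals mark CTTTGA or CTTTGT on either strand, the core letters of TCF/LEF binding.
Tcf7l1, chr6:72788996-72789295, minus strand: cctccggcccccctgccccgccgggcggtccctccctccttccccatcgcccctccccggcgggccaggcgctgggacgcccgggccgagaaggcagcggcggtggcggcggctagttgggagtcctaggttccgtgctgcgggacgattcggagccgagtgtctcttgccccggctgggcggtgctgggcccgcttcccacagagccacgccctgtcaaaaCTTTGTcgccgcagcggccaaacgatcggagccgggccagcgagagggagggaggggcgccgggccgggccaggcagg
Tcf7l2, chr19:55895071-55895370, plus strand: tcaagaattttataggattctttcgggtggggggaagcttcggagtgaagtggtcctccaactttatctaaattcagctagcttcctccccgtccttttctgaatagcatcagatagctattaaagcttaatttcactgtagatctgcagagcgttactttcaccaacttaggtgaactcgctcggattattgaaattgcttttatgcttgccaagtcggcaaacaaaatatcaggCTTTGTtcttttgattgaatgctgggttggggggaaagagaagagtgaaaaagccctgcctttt
Lef1, chr3:131156044-131156343, plus strand: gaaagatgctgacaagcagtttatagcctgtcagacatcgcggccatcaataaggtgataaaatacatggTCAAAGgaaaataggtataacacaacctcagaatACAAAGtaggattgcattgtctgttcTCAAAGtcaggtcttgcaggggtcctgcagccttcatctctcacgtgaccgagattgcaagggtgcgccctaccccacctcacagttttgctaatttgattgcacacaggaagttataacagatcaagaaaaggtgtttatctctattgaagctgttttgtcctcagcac
These were the 3 of 16 windows of the 10 genes that held the letters, where 31.2% of all 32851 windows of 300 bases did. The Tcf7l2 and Lef1 windows shown lie at internal starts of these genes. That of Lef1 held 3 matches, and 1.14% of all windows held 3 or more. The other 3 Lef1 windows, the other Tcf7l2 window and those of Ctnnb1, Jup, Ctnnd1, Ctnnbip1 and Tcf7 held none. A match describes letters, not a bound site. RefSeq windows matched 8 of the 10 genes, and Cdh1 and Ctnna1 had no entry.

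Levels were compared between genes only per length. With CPM divided by the length of the canonical transcript, the mean over 9 libraries was 130.2 CPM per kb for Ctnna1, 118 for Tcf7l1, 112 for Jup, 94.5 for Ctnnb1 and 85.7 for Cdh1. Lef1 followed at 42.8 CPM per kb, Tcf7 at 24.7, Ctnnd1 at 20.9, Ctnnbip1 at 6.86 and Tcf7l2 at 3.27. The ranges over libraries overlapped between neighbours from Ctnna1 down to Cdh1 and between Tcf7 and Ctnnd1, so those neighbours are not separated beyond the spread, although each order held in 7 or more of the 9 libraries. The ranges did not overlap between Cdh1 and Lef1, Lef1 and Tcf7, Ctnnd1 and Ctnnbip1, or Ctnnbip1 and Tcf7l2.

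The order depended on the length used. With all exons of a gene merged, an alternative chosen after seeing the data, Cdh1 was highest at 81.8 CPM per kb and Ctnna1 fell to 53.5. Lef1, whose merged exons span 9337 bases against 2548 in the canonical transcript, stood at 11.7 CPM per kb, below Tcf7 at 22.3. Tcf7l2 was lowest on both lengths, at 3.27 and 1.51 CPM per kb.

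**Figure D3:**
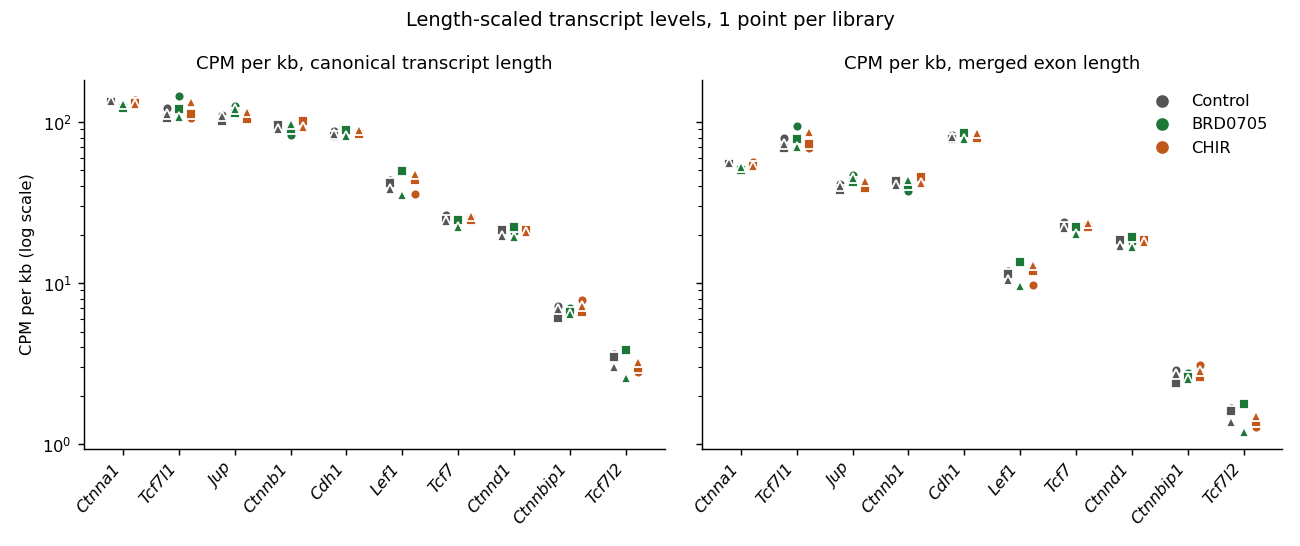
CPM per kb of each gene on a log axis, 1 point per library, coloured by group and shaped by replicate number (circle 1, square 2, triangle 3), with the canonical transcript length (left) and the merged exon length (right). Tcf7l1 lies above the other TCF/LEF genes on both lengths, while Lef1 lies above Tcf7 on the left and below it on the right.

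Tcf7l1 held most of the length-scaled TCF/LEF signal in every library. Its share of the 4 genes was 61.8 ± 1.55% in control, 63.1 ± 2.09% under BRD0705 and 62.4 ± 1.08% under CHIR (SD, n = 3 libraries each). The share of Lef1 was 22.6 ± 1.19%, 22.8 ± 1.92% and 22.6 ± 1.26% in the same order, that of Tcf7 13.7 ± 0.257%, 12.3 ± 0.968% and 13.4 ± 1.03%, and that of Tcf7l2 1.84 ± 0.151%, 1.74 ± 0.194% and 1.61 ± 0.0599% (SD, n = 3 libraries each). On merged exon lengths Tcf7l1 held 66.1 to 71.1% in single libraries, but Lef1 fell below Tcf7. Lef1 then held 10.3%, 10.5% and 10.3% in control, BRD0705 and CHIR, and Tcf7 20.8%, 18.8% and 20.3%. Jup made up 53.1 ± 1.64% of the summed Jup and Ctnnb1 signal per length in control, 57.01 ± 2.84% under BRD0705 and 52.4 ± 2.41% under CHIR (SD, n = 3 libraries each). On merged exon lengths the Jup share was 48.5%, 52.5% and 47.8%, so which of the 2 genes held more in control and under CHIR depended on the length. These are levels of RNA, and no test was run on them.

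Other genes of the junction and of β-catenin signalling were taken from 3 lists that leave out the 10 genes, and the part of the fibroblast RNA in their values was not tested. Of 27 genes of adherens junctions and desmosomes, 26 were in the table and 23 were tested. For BRD0705 against control 0 of the 23 passed by edgeR, DESeq2 or limma voom, and 3 had an unadjusted p under 0.05 in edgeR. For CHIR against control 2 fell and 0 rose, and between the inhibitors 3 were higher under BRD0705 and 0 lower (edgeR, adjusted p under 0.05). Over all tested genes 2.52% rose and 3.78% fell for CHIR against control, 4.8% were higher and 2.97% lower between the inhibitors, and 15.9% had an unadjusted p under 0.05 for BRD0705 against control. Over the list the median log2 fold change was 0.03, -0.03 and 0.05 in the 3 comparisons, where that of all genes was -0.0038, -0.0091 and 0.0038.

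Cdh3, which encodes P-cadherin, was at 46.5, 44.5 and 42.6 CPM in control, 49.2, 51.9 and 44.5 CPM under BRD0705 and 30.6, 35.95 and 37.9 CPM under CHIR. All CHIR libraries lay below all others. Its log2 change for CHIR against control was -0.36 ± 0.08 (SE; edgeR adjusted p 0.0102), and it was higher under BRD0705 than under CHIR by 0.48 ± 0.08 (SE; edgeR adjusted p 0.00105). Dsg2, which encodes a desmosomal cadherin, fell under CHIR from 51.1 ± 0.995 to 41.6 ± 0.434 CPM (SD, n = 3 libraries each; log2 change -0.30 ± 0.06 SE, edgeR adjusted p 0.00790). It was higher under BRD0705 than under CHIR by 0.24 ± 0.06 (SE; edgeR adjusted p 0.0270). Nectin1, an adhesion molecule of the junction, was at 44.5 ± 5.71 CPM under BRD0705 and 34.6 ± 1.09 CPM under CHIR (SD, n = 3 libraries each; log2 difference 0.36 ± 0.08 SE, edgeR adjusted p 0.00733). The Cdh3 call for CHIR against control was lost without CHIR replicate 1 (edgeR adjusted p 0.0644) and the Nectin1 call without BRD0705 replicate 1 (edgeR adjusted p 0.0524). The Dsg2 call between inhibitors was lost without BRD0705 replicate 2 or 3 or without CHIR replicate 1, 2 or 3, with edgeR adjusted p of 0.0614 to 0.100.

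Of 27 nuclear cofactors of β-catenin and TCF/LEF, 26 were tested. For BRD0705 against control 0 passed by edgeR or limma voom, 7 had an unadjusted p under 0.05 in edgeR, and DESeq2 called 1, Smarca4 (log2 change 0.19, adjusted p 0.00441). For CHIR against control 2 fell and 0 rose, and between the inhibitors 3 were higher under BRD0705 and 0 lower (edgeR, adjusted p under 0.05). The shares over all tested genes by edgeR are those given for the junction list. DESeq2, which called Smarca4, called 471 genes for BRD0705 against control, where edgeR called 188. The DESeq2 count is out of fewer genes, so its share was above that of edgeR. The list's median log2 fold change was 0.07, 0.0040 and 0.03 in the 3 comparisons. Bcl9l, which encodes a coactivator that bridges β-catenin to Pygo proteins, was at 55.4, 47.2 and 48.9 CPM in control, 64.4, 61.4 and 51.8 CPM under BRD0705 and 38.4, 43.0 and 41.5 CPM under CHIR. Its CHIR libraries lay below all others. It was higher under BRD0705 than under CHIR by 0.53 ± 0.08 (log2, SE; edgeR adjusted p 0.000571), a call that held in each of the 9 fits without 1 library. Its relative Bcl9 was also higher under BRD0705, at 47.01 ± 4.12 against 37.4 ± 2.06 CPM (SD, n = 3 libraries each; log2 difference 0.33 ± 0.07 SE, edgeR adjusted p 0.00892).

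Against control, Bcl9l fell under CHIR, with a log2 fold change of -0.30 ± 0.08 (SE; edgeR adjusted p 0.0332). Nlk, a kinase that phosphorylates TCF/LEF factors, fell from 47.7 ± 5.77 to 37.5 ± 0.611 CPM (SD, n = 3 libraries each; log2 change -0.34 ± 0.08 SE, edgeR adjusted p 0.0152). The Bcl9l call was lost without any one of the 3 control libraries, the 3 CHIR libraries or BRD0705 replicate 2, with edgeR adjusted p of 0.0505 to 0.153. The Nlk call was lost without control replicate 2 (edgeR adjusted p 0.109), CHIR replicate 1 (0.0611) or CHIR replicate 2 (0.0658). The Bcl9 call was lost without BRD0705 replicate 1 (edgeR adjusted p 0.0654) or CHIR replicate 2 (0.0633). Sox7, a SoxF factor at low counts, was at 4.41 ± 0.476 CPM under BRD0705 and 2.75 ± 0.790 CPM under CHIR (SD, n = 3 libraries each; log2 difference 0.68 ± 0.19 SE, edgeR adjusted p 0.0369). Its call held in 10 of 17 alternatives, 4 of them among the 9 fits without 1 library. It was lost, among others, with DESeq2 (adjusted p 0.0592). It was also lost without BRD0705 replicate 1 or 2, CHIR replicate 1 or 3 or control replicate 2 (edgeR adjusted p 0.0526 to 0.159).

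Of 23 Wnt and β-catenin target genes, 14 were tested, and the others, such as Mixl1, had too few counts. For BRD0705 against control 0 of the 14 passed by edgeR, DESeq2 or limma voom, and 3 had an unadjusted p under 0.05 in edgeR. Under CHIR against control 2 rose and 1 fell, and between the inhibitors 1 was higher under BRD0705 and 0 lower (edgeR, adjusted p under 0.05). The shares over all tested genes are again those given for the junction list. The list's median log2 fold change was 0.08, -0.02 and 0.06 in the 3 comparisons. Zfp703, a transcriptional repressor gene, was at 11.9, 9.93 and 9.07 CPM in control, 13.5, 13.3 and 11.9 CPM under BRD0705 and 15.8, 17.7 and 13.4 CPM under CHIR. It rose under CHIR by 0.60 ± 0.11 (log2, SE; edgeR adjusted p 0.00414), with all CHIR libraries above control and 1 of them below the highest BRD0705 library. Axin2, a widely used reporter gene of β-catenin signalling, was at a mean of 13.6 CPM in control, 13.8 CPM under BRD0705 and 14.8 CPM under CHIR; it did not pass (edgeR adjusted p 0.523 for CHIR against control) and is named here after its values were seen. Znrf3, a ubiquitin ligase that removes Wnt receptors, rose from 25.1 ± 0.536 to 32.03 ± 1.55 CPM (SD, n = 3 libraries each; log2 change 0.35 ± 0.10 SE, edgeR adjusted p 0.0362).

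Myc was at 60.3, 51.2 and 58.4 CPM in control, 72.5, 62.3 and 63.2 CPM under BRD0705 and 48.3, 46.7 and 48.0 CPM under CHIR. The 3 groups did not overlap. Myc fell under CHIR against control, with a log2 fold change of -0.25 ± 0.07 (SE; edgeR adjusted p 0.0476), and was higher under BRD0705 than under CHIR by 0.47 ± 0.07 (SE; edgeR adjusted p 0.000571). The Myc difference between inhibitors passed in each of the 9 fits without 1 library. Its fall against control passed in 2 of those 9 fits, without control replicate 2 or BRD0705 replicate 1, and edgeR adjusted p reached 0.175 without control replicate 1. DESeq2 and limma voom gave adjusted p of 0.0577 and 0.0570 for that fall, and edgeR with DESeq2-type factors gave 0.0561. The Znrf3 call was lost without control replicate 1, 2 or 3 or CHIR replicate 1 or 2, with edgeR adjusted p of 0.0879 to 0.108, and with scaling by library size only (0.0581), and the Zfp703 call held in all 9 fits.

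**Figure D4:**
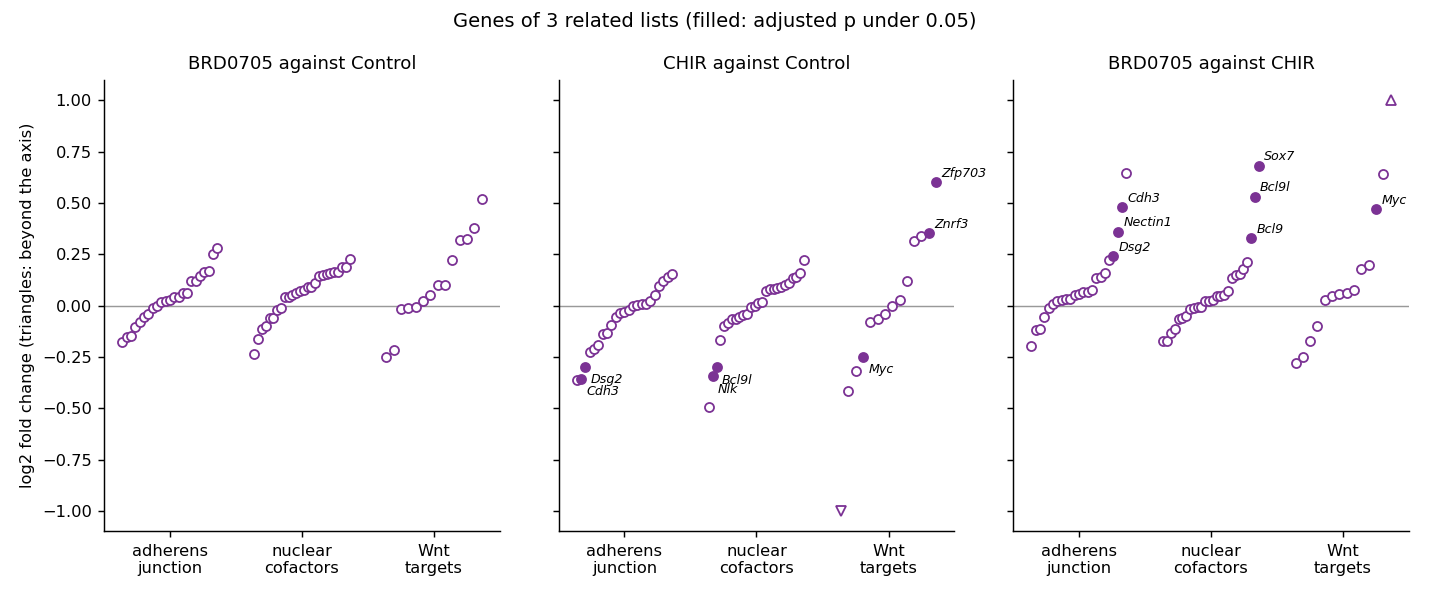
Log2 fold change of each tested gene of the 3 lists in the 3 comparisons, ordered by value within a list. Filled points passed an adjusted p of 0.05 and are named, open points did not, and triangles mark the 2 points beyond 1 on the axis. No point is filled for BRD0705 against control.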

How the data were processed

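RNA sequencing libraries were compared over 10 genes. The values are raw counts, deposited by the authors as whole numbers for each gene symbol and library. The submitters' processing notes name RSEM, DESeq2 and the build mm10, without roles or versions. The aligner, annotation and use of strand are not given in the sources used here. The labels' protocols name ribosomal RNA depletion, while the molecule label says polyA RNA. The authors' normalized table was not used.

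Counts were tested in edgeR 4.0.16 (R 4.3.3) using TMM scaling and filterByExpr by group (minimum count 10). The quasi-likelihood F test was 2-sided and took 1 fit of 3 group means over the 9 libraries (6 residual degrees of freedom, common dispersion 0.00356). P-values were adjusted by Benjamini-Hochberg over all 15366 genes, and 0.05 was the threshold. SEs were computed from each log2 fold change and its F value. The edgeR script was tested on simulated data. Depth was 17359422 to 20773337 counts per library. Transcript lengths and GC content came from GENCODE vM39 (GRCm39), matched by symbol for all 10 genes; positions and promoters came from RefSeq on GRCm38.p6, the same build as mm10.

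The genes and lists were chosen with earlier results of these data known. Named genes were the 10 members, up to 5 list genes past the threshold per list and comparison, and the 3 genes most like Ctnnb1. Axin2 was added after its values were seen, as marked in the text. Smarca4, which DESeq2 called, and the marker genes given with a call or value were also named after results were seen. Alternatives were DESeq2 1.42.0, limma voom (limma 3.58.1), scaling by DESeq2-type factors or by library size only, omitting the low-count filter or filtering at a mean CPM of 1, fitting only the compared groups, adding the replicate block, and leaving out each library. Merged exon lengths, and the alternatives for list and marker genes, were added after seeing the data.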

Additional observations from a re-analysis of the deposited data

How the results depend on the processing

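Of 510 values of the 10 genes under alternatives, 476 kept their direction and their side of the threshold, 33 changed sign and 1, Jup with DESeq2, passed. With DESeq2, 1 of the 10 genes passed for BRD0705 against control in place of 0, and the cause was not tested. All sign changes were in values that did not pass. Outside the fits without 1 library, they were Ctnnd1 (-0.00031) and Tcf7l2 (-0.0082) for BRD0705 against control with limma voom, Ctnna1 (0.00055) and Tcf7 (0.0038) for CHIR against control with DESeq2, and Cdh1 (-0.016) for CHIR against control with library size only. Over the 9 fits without 1 library, log2 fold changes for BRD0705 against control ranged from -0.11 to 0.0011 for Ctnnb1, -0.066 to 0.052 for Ctnnbip1, -0.047 to 0.062 for Ctnnd1 and -0.078 to 0.20 for Tcf7l2. For CHIR against control they ranged from -0.016 to 0.041 for Cdh1, -0.033 to 0.012 for Ctnna1, -0.00086 to 0.066 for Jup, -0.053 to 0.15 for Lef1, -0.033 to 0.036 for Tcf7 and -0.052 to 0.12 for Tcf7l1. For BRD0705 against CHIR they ranged from -0.091 to 0.019 for Ctnnd1, -0.024 to 0.23 for Lef1, -0.097 to 0.0027 for Tcf7 and -0.039 to 0.19 for Tcf7l1. In none of those fits did a member pass.

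Over all genes, 188 passed for BRD0705 against control, 609 with no low-count filter and 471 with DESeq2. These counts are out of different numbers of genes, more with no low-count filter and fewer with DESeq2. Without 1 library the counts ranged from 21 to 305 for BRD0705 against control, 514 to 1070 for CHIR against control (968 with all libraries) and 616 to 1313 for BRD0705 against CHIR (1194 with all). For BRD0705 against control the count was 292, 37 and 51 without control replicate 1, 2 and 3, 21, 55 and 305 without BRD0705 replicate 1, 2 and 3, and 98 without CHIR replicate 2. For CHIR against control it was 523 and 561 without control replicate 2 and 3, and 633 and 514 without CHIR replicate 1 and 2. For BRD0705 against CHIR it was 616 and 756 without BRD0705 replicate 1 and 2, and 675 and 617 without CHIR replicate 1 and 2. Blocked on the replicate number, the counts were 222, 973 and 1177, and 0 of the 10 genes passed in each comparison. None of the 14 calls of the named list genes changed. Among the markers, the block ended the call of Esrrb for BRD0705 against CHIR (edgeR adjusted p 0.0528, against 0.0474 without it) and added Tbx3 for CHIR against control (0.0467, against 0.0507). Deviations from the group means had a mean correlation of -0.00119 over 9 pairs of the same number (from -0.0897 to 0.0802). Over 18 pairs of different numbers it was 0.000622. With 3 libraries per group, these values cannot show whether libraries of the same number shared a culture or batch. Of 238 values of the named list genes, 196 kept their call and 42 lost it, none with a change of sign. Tcf7l2 and Ctnnbip1 had the fewest counts, at 224 to 437 per library. For BRD0705 against control the SE was 0.13 for Tcf7l2. That of Ctnnbip1 (0.087) was below those of Tcf7l1 (0.092) and Lef1 (0.11). The part of depth in these SEs was not tested.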
